A study of Mus musculus with 21 samples.

Results

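The heat shock and unfolded protein response genes, a module of 36 members, were followed in macrophages sorted from mouse kidneys after Sham surgery or after renal artery stenosis (RAS). The members were given as a list of gene symbols, with no measured value in the rule. Each member's value was the sum of the count-table lines that carry its symbol, written as CPM, counts scaled to a common library total, with each total adjusted for RNA composition by edgeR's TMM factors (0.836 to 1.16). Shares of all counts, in percent, are of the unadjusted totals. All 36 symbols were found among the 34236 gene names of the table. The list holds 13 heat shock members (cytosolic chaperones, the mitochondrial pair Hspd1 and Hspe1, the co-chaperone Bag3 and the factor Hsf1), 17 members of the endoplasmic reticulum (ER), and 6 of the integrated stress response (ISR).

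RNA was sequenced from F4/80+CD64+ macrophages of male C57BL/6J mice aged 24 weeks, and the labels give a flow sort time of 5 hours. In RAS a cuff narrowed the right renal artery, and Sham kidneys served as the control. The study separated kidney-resident macrophages (KRM) from the monocyte-derived CD11chiMϕ and CD11cloMϕ by CD11b and CD11c. KRM gave 4 Sham and 3 RAS libraries, while CD11chiMϕ and CD11cloMϕ each gave 3 Sham and 4 RAS libraries. The labels name no transgene, drug or culture step in any group, and they do not say whether a library holds 1 mouse or several. The study's methods state fewer RAS libraries for CD11chiMϕ and CD11cloMϕ than the labels and the count table hold, without saying which, and every labelled library was used here.

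The 21 libraries held 6891137 to 18592376 counts over 14606 to 17702 genes, so that 3 counts, the limit left by a count of 0, stood at 0.150 to 0.476 CPM. Defining macrophage markers were present in every library, Adgre1 (F4/80) at 119 to 1848 CPM and Fcgr1 (CD64) at 12.4 to 245 CPM, with the lowest values of both in CD11chiMϕ RAS library 4. RNA of other cell types varied between libraries. The summed CPM of 20 tubule markers was 20975 in CD11chiMϕ Sham library 3 against 334 and 343 in the other Sham libraries of that population, and in KRM it was 557, 457, 2829 and 496 in Sham against 1689, 8196 and 6191 in RAS. The summed CPM of 10 T and NK cell markers was 412, 53.1 and 44.4 in KRM RAS libraries 1 to 3 and 4.21, 3.39, 3.24 and 3.24 in the KRM Sham libraries, so that all RAS libraries were higher and library 1 the most. Within the RAS groups, KRM libraries 2 and 3 differed from each other by 10.1 times counting error (chi-square per degree of freedom) and from library 1 by 107 to 136 times, and CD11chiMϕ libraries 3 and 4 differed by 5.13 times where the other pairs of that group stood at 94.3 to 128. In KRM Sham, libraries 2 and 4 differed by 7.23 times, the least in that group, and libraries 1 and 3 by 40.2 times, the most. The labels do not say that these close pairs come from separate mice, so counts of calls are also given with each pair averaged as 1 library, a setting chosen after seeing the data. Counts of members called are also given without KRM RAS library 1 or CD11chiMϕ Sham library 3. In sorted bulk RNA, fewer cells of a type and less RNA per cell cannot be told apart.

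Misfolded proteins are met by separate programmes in separate compartments. In the cytosol, heat shock factor HSF1 drives the inducible HSP70 genes Hspa1a and Hspa1b, their HSP40 partners and small heat shock proteins such as Hspb1. In the ER, the sensors IRE1 and ATF6 raise chaperones, foldases and degradation factors through XBP1 and cleaved ATF6, while the kinase PERK lowers translation and, through ATF4, raises the ISR genes for amino acid supply and stress adaptation. In ischemic kidney these responses are well known in tubule cells, and in macrophages HSP70 genes are also known to respond to warming and handling of cells.

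The promoters of members on which the results turn were read from RefSeq (build GRCm38.p6), as the 250 bases before each gene's start, to show the letters shared by the HSP70 genes called together and those of genes of the other programmes. The capitals mark a pair of inverted heat shock half-sites (GAANNTTC) in Hspa1a and Hspa1b, the ER stress element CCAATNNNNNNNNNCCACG or its reverse strand in Hspa5 and Creld2, ERSE-II, in which a reversed CCAAT box stands 1 base before CCACG, in Herpud1, and the amino acid response element TGATGNAA in Asns.
Hspa1a, chr17:34972157-34972406, minus strand: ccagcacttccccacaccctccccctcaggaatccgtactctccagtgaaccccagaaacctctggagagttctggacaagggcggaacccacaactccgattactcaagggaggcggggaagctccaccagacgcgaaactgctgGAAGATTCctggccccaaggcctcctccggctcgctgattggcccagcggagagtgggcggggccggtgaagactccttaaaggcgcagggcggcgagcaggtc
Hspa1b, chr17:34959239-34959488, minus strand: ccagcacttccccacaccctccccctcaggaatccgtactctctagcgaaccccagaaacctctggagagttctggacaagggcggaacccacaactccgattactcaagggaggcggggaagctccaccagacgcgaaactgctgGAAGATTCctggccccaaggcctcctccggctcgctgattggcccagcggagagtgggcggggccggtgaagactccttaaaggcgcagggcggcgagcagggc
Hspa5, chr2:34771840-34772089, plus strand: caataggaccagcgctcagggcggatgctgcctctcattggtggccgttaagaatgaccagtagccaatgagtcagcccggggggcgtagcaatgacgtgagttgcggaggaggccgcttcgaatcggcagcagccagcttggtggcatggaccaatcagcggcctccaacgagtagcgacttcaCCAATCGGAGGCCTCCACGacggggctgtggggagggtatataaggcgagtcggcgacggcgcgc
Creld2, chr15:88819396-88819645, plus strand: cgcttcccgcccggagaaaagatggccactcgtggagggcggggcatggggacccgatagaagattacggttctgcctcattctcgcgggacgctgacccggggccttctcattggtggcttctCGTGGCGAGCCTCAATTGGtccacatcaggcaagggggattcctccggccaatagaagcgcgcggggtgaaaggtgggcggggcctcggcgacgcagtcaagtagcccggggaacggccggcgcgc
Herpud1, chr8:94386179-94386428, plus strand: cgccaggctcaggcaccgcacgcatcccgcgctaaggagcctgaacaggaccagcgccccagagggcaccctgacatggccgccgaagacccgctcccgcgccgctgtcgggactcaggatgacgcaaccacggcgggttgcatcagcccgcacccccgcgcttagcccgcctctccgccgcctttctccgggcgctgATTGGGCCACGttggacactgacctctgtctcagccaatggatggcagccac
Asns, chr6:7693210-7693459, minus strand: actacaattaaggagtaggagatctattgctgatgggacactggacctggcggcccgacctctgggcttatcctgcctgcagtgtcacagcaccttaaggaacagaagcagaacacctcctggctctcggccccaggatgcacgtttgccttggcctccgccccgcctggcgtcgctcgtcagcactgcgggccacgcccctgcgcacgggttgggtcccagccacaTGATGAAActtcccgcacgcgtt

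The Hspa1a and Hspa1b windows were the same at 247 of 250 bases. Both genes lie on the minus strand of chromosome 17, at 34969190 to 34972156 and 34956436 to 34959238 (GENCODE vM21, GRCm38), each window ending just before its gene, and 58.8% of the 50-base windows of the Hspa1a transcript occur unchanged in that of Hspa1b. How the deposited counting split reads between these near-identical copies is not given in the sources used here, so their separate values are uncertain and their sum is given too. A promoter window was given for 29 of the 36 members. On either strand, GAANNTTC was found in 7 of the 29 (Hspa1a, Hspa1b, Hspb1, Dnaja1, Hspd1, Hspe1 and Asns) and in 7.73% of 27025 genes, and the windows of Hspd1 and Hspe1 overlap and share their match. The stricter GAANNTTCNNGAA, which contains GAANNTTC, was found in Hspd1 and Hspe1 and in 0.514% of genes. The ER stress element was found in 7 of the 29, all ER members (Hspa5, Hsp90b1, Pdia6, Calr, Canx, Dnajc3 and Creld2), and in 0.13% of genes. ERSE-II was found in Herpud1 and in 0.037% of genes, TGATGNAA in Herpud1, Asns and Chac1 and in 3.91%, and TGACGTGG, the unfolded protein response element, in none of the 29 and in 0.603%. In Asns the match to GAANNTTC overlaps that to TGATGNAA. A match describes the letters and is not a measured binding site.

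The inducible HSP70 genes stood highest among the members in resident macrophages of Sham kidneys. Together Hspa1a and Hspa1b took 1.73 to 2.25% of all counts in the KRM Sham libraries, 0.458 to 1.22% in KRM RAS, 0.624 to 1.25% in CD11chiMϕ Sham, 0.132 to 0.813% in CD11chiMϕ RAS, 0.252 to 0.527% in CD11cloMϕ Sham and 0.242 to 0.691% in CD11cloMϕ RAS. The KRM Sham libraries stood above every other library. Per transcript length, on the deposited log2(TPM + 1) scale, the highest levels in KRM Sham were Hspa1b at 12.56 ± 0.18 (SD, n = 4), Hspa1a at 12.12 ± 0.19 and Hspa8, the constitutive HSP70, at 11.48 ± 0.29, followed by Hspa5 (BiP, the ER HSP70) at 10.53 ± 0.31. The means of Hspa1a and Hspa8, and of Hspa8 and Hspa5, lay further apart than their SDs added, whereas Hspa1b and Hspa1a share sequence and were not ordered. In KRM RAS, where library 1 was left out of this scale because its column did not match its counts (r = 0.09 across genes), Hspa8 stood first at 11.33 ± 0.06 (SD, n = 2). The lowest levels in KRM Sham were those of the ISR genes Asns at 0.87 ± 0.18 and Trib3 at 0.79 ± 0.24, which overlap within their spread, while Chac1 is not in that table.

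**Figure D1:**
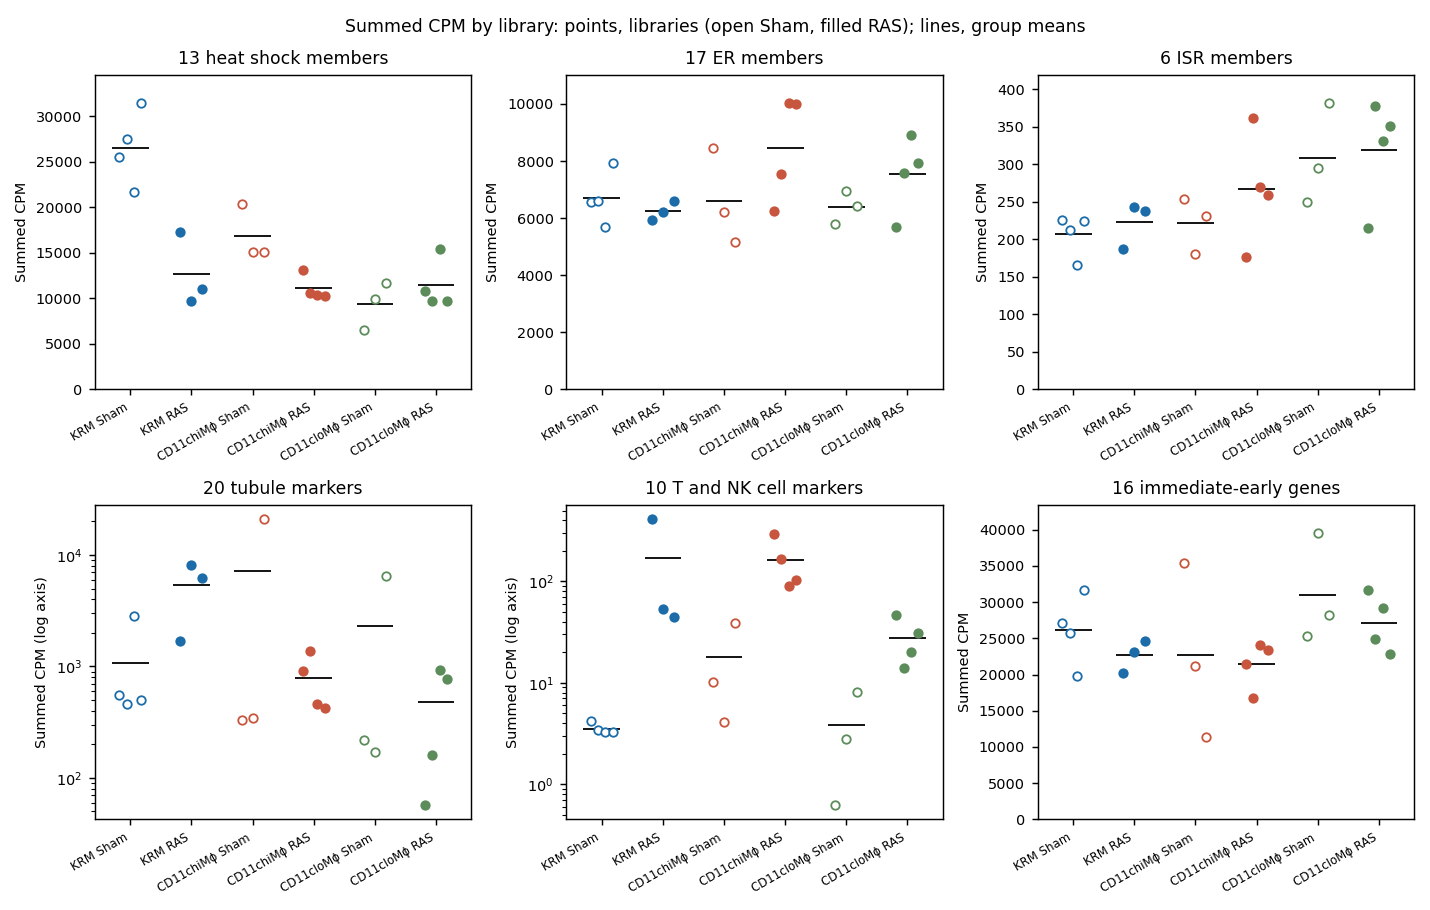
Summed CPM of the heat shock, ER and ISR members (top) and of tubule markers, T and NK cell markers and immediate-early genes (bottom), 1 point per library, open for Sham and filled for RAS, with lines at the group means. The heat shock sum was 21605 to 31425 CPM in KRM Sham and 9639 to 17310 CPM in KRM RAS, and without Hspa1a and Hspa1b it was 5581 to 8887 and 5667 to 6547 CPM. These sums without the HSP70 genes overlapped, as did the ER sums.

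The first question was what stenosis changed within each macrophage population. In KRM, the inducible HSP70 genes fell and Asns, which encodes asparagine synthetase, rose. Hspa1a stood at 8294, 8664, 6648 and 9647 CPM in KRM Sham libraries 1 to 4 and at 4690.3, 1846 and 2288 CPM in RAS libraries 1 to 3. The RAS libraries were all lower, library 1 the least so. Hspa1b stood at 10888, 11913, 9376 and 12892 CPM in Sham and 6072, 2126 and 2759 CPM in RAS, in the same order. The mean of Hspa1a was 8313 ± 1248 (SD, n = 4) CPM in Sham and 2942 ± 1530.5 (SD, n = 3) CPM in RAS, a log2 fold change of -1.40 ± 0.33 (SE, edgeR adjusted p = 0.0409). For Hspa1b the log2 fold change was -1.53 ± 0.36 (SE, edgeR adjusted p = 0.0409), and for the counts of both genes summed -1.47 ± 0.35 (SE, edgeR adjusted p = 0.0415). Adjusted p-values here and below are from edgeR's quasi-likelihood F test, Benjamini-Hochberg over all genes tested, and a gene is called changed at an adjusted p under 0.05. Asns stood at 0.482, 0.529, 0.599 and 0.314 CPM in Sham, from 4, 5, 12 and 3 counts, and at 2.16, 10.8 and 8.53 CPM in RAS, from 22, 124 and 93 counts. All RAS libraries were above all Sham libraries, with library 1 nearest to them, and the log2 fold change was 3.95 ± 0.60 (SE, edgeR adjusted p = 0.0184).

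These were 3 of the 35 members tested in KRM, against 9.7% of the 12852 genes tested, with 1 higher where 7.77% of genes were and 2 lower where 1.94% were. The median log2 fold change of the 35 was 0.08, and that of all genes tested 0.02. The other 11 heat shock members were not called, among them the HSP40 gene Dnajb1 at 538, 583, 413 and 746 CPM in Sham and 483, 408 and 418 CPM in RAS, where the groups overlap. Hsf1 itself, the transcription factor of the heat shock response, stood at 57.5, 57.7, 48.7 and 64.4 CPM in Sham and 57.9, 36.4 and 39.6 CPM in RAS, with library 1 inside the Sham range and the others below it. None of the 17 ER members was called in either direction, and 3 of them had an unadjusted p under 0.05 (Herpud1, Atf6 and Dnajb9). Of the ISR members besides Asns, Sesn2, a stress-induced regulator of mTORC1, was higher in every RAS library, at 30.6, 31.9 and 31.6 CPM against 21.3, 24.4, 26.3 and 18.2 CPM, log2 fold change 0.58 ± 0.16 (SE, edgeR adjusted p = 0.0625), and was not called. Groups without overlap and higher in RAS were seen in 2 of the 35 members (Asns and Sesn2) against 10.5% of all genes tested, and groups without overlap and lower in RAS in 2 (Hspa1a and Hspa1b) against 17.1%. Chac1, a glutathione-degrading ISR gene, had a count of 0 in all 4 KRM Sham libraries and counts of 1, 4 and 11 in RAS, and did not pass the filter on low counts.

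Without KRM RAS library 1, 9 of 35 members were called where 50.2% of all genes were. In the fit without library 1 Hspa1a fell by 1.93 and Hspa1b by 2.13 on the log2 scale, and Asns rose by 4.33. Also called in that fit were Hspb1 (log2 fold change 1.06), Dnajb9 (0.82), an ER HSP40, Herpud1 (0.75), a factor of ER-associated degradation, and Sesn2 (0.56), all higher, and Hsf1 (-0.51) and Atf6 (-0.93), both lower. These 9 calls take their RAS values from the close pair, libraries 2 and 3, alone. With that pair averaged as 1 library beside library 1, 0 members and 0.2% of genes were called, and with KRM Sham libraries 2 and 4 averaged 0 members and 0.715%. Likewise, 0 members were called without KRM Sham library 1, 2 or 4 or without KRM RAS library 2 or 3, each in turn, where 0.216 to 0.338% of all genes were. In RAS libraries 2 and 3 Herpud1 stood at 552 and 635 CPM and Dnajb9 at 82.6 and 70.2 CPM, above the Sham libraries at 409, 370.4, 324 and 381 CPM and 40.1, 45.4, 40.6 and 56.4 CPM, whereas library 1, at 401 and 43.7 CPM, lay among them. Atf6, the membrane-bound ER stress sensor, stood at 194, 115 and 134 CPM in RAS libraries 1 to 3 and 181, 258, 282 and 269 CPM in Sham.

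Other cell types moved with this comparison. Of the T and NK cell markers, 10 of 10 were called higher in KRM RAS, and of the tubule markers tested 7 of 18 and of the endothelial markers 3 of 6. The tubule sum was highest in RAS libraries 2 and 3, at 8196 and 6191 CPM, the libraries with the most Asns, while Asns stood at 2.26 CPM in CD11chiMϕ Sham library 3 with its tubule sum of 20975 CPM. The part of these cells in the differences was not tested. The 16 immediate-early genes of the cell dissociation response, such as Fos and Jun, summed to 27125, 25766, 19740.3 and 31730.1 CPM in KRM Sham and 20226, 23119.8 and 24673 CPM in RAS, and these ranges overlap. Of the 16, 3 were called higher in RAS and 1 lower (7.77% and 1.94% of all genes). The lower one, Jun, named here after its values were seen, stood at 5469.5, 5096, 3864 and 6775 CPM in Sham and 2840.4, 1659.5 and 1856 CPM in RAS, log2 fold change -1.22 ± 0.25 (SE, edgeR adjusted p = 0.0326). Jun was thus lower in every RAS library, in the same direction as Hspa1a and Hspa1b, whereas Ier3, Nr4a1 and Btg2, named after their values were seen too, rose. The part of the dissociation response in the HSP70 difference was not tested.

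**Figure D2:**
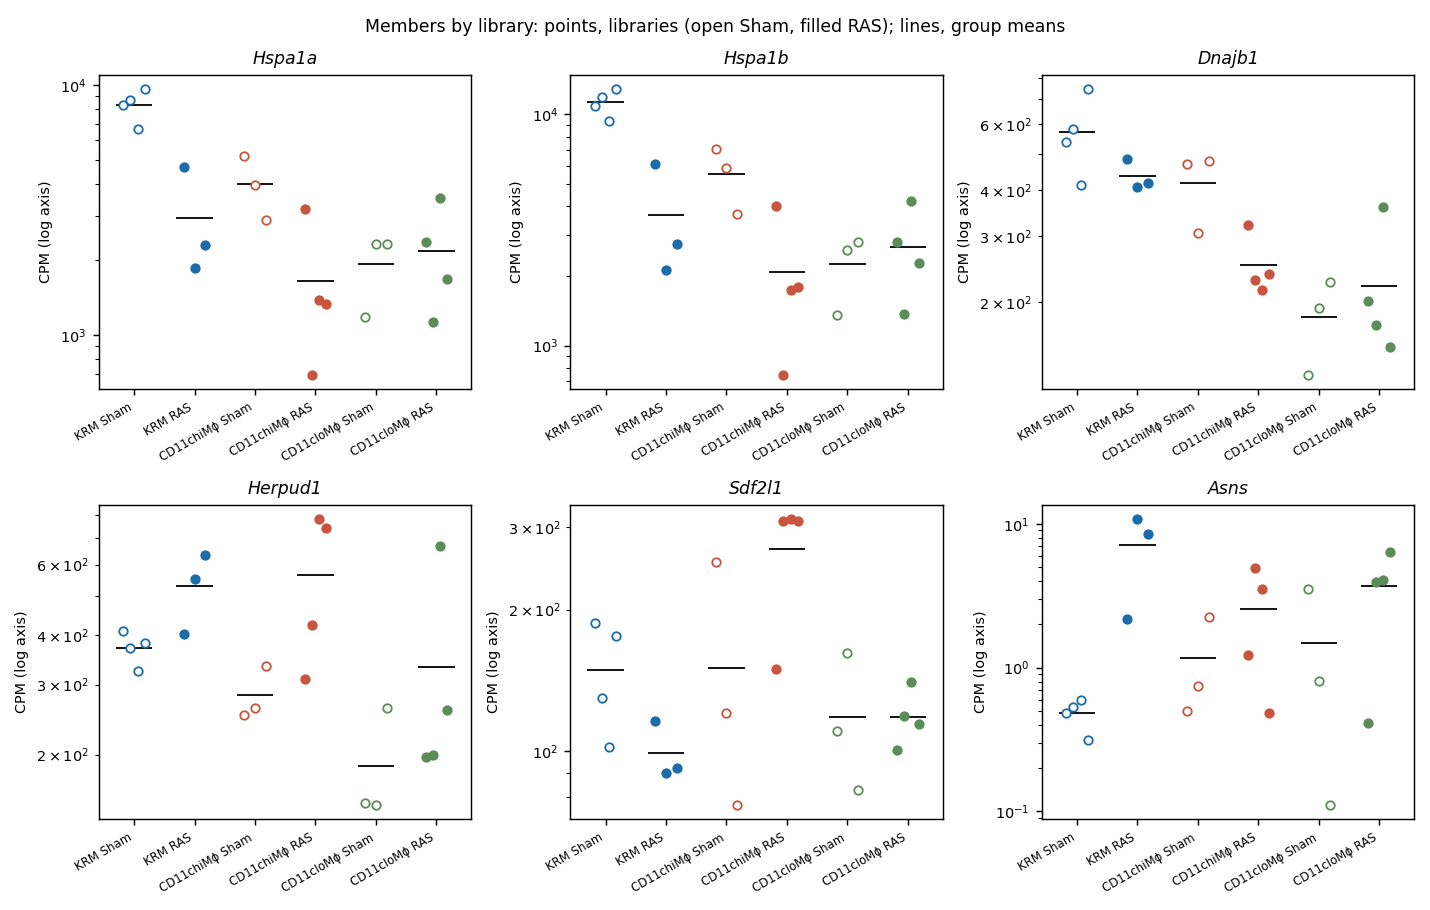
CPM on a log axis of 6 members in the 21 libraries, 1 point per library in label order, open for Sham and filled for RAS, with lines at the group means. Hspa1a and Hspa1b stood at 6648 to 9647 and 9376 to 12892 CPM in KRM Sham, above all other libraries, and Asns at no more than 0.599 CPM there.

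In CD11chiMϕ, 0 of 34 members tested were called, with 0% of the 12739 genes tested. At an unadjusted p under 0.05 there were 7 members and 1247 genes, and DESeq2 also called 0 members, as did edgeR without Sham library 3, with 0% of genes. Hspa1a stood at 5206, 3992 and 2889 CPM in Sham and 3191, 693, 1376 and 1329.6 CPM in RAS, and Hspa1b at 7062, 5835 and 3688 and 4028, 747, 1747 and 1798 CPM. RAS library 1 lay within the Sham range and libraries 2 to 4 below it. The log2 fold change was -1.36 ± 0.55 (SE, edgeR adjusted p = 0.508) for Hspa1a and -1.48 ± 0.59 (SE, edgeR adjusted p = 0.508) for Hspa1b. Sesn2 was again higher in every RAS library, in library 1 by a narrow margin, at 31.8, 48.2, 93.3 and 83.8 CPM against 30.3, 31.5 and 31.4 CPM, log2 fold change 0.95 ± 0.37 (SE, edgeR adjusted p = 0.508), and was the only member of the 34 whose groups did not overlap in that direction, against 4.36% of genes. The 7 members were Bag3, Dnajb1, Herpud1, Hspa1a, Hspa1b, Hspb1 and Sesn2. No marker of another cell type was called either, but their levels differed. T and NK cell markers summed to 90.6 to 294 CPM in RAS and 4.15 to 39.0 CPM in Sham, with 10 of 10 log2 fold changes above 0 and a median of 3.09. Tubule markers had a median of -3.13, with 6 of 20 at an unadjusted p under 0.05, and dendritic cell markers were above 0 in 9 of 10 with a median of 0.98. The part of these cells was not tested.

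In CD11cloMϕ, 0 of 36 members were called, with 0% of the 12301 genes tested, and 1 member and 1102 genes had an unadjusted p under 0.05. DESeq2 called 0 members here as well. Hspa1a stood at 1175, 2309 and 2308 CPM in Sham and 2351, 1125, 3539 and 1678 CPM in RAS, overlapping on both sides. Chac1 was the member with the unadjusted p under 0.05. Its counts were 5, 0 and 0 in Sham and 11, 32, 18 and 36 in RAS, or 1.13, 3.82, 2.04 and 4.38 CPM, so that every RAS library was higher, but the log2 fold change of 3.90 ± 1.22 (SE, edgeR adjusted p = 0.553) depends on the small value added to counts of 0. Groups of 1 of the 36 members did not overlap in that direction, against 4.46% of all genes. The median log2 fold change was 0.21 over the members and -0.02 over all genes tested. No marker of another cell type was called, but their levels differed. Log2 fold changes were above 0 in 8 of 8 B and plasma cell markers (median 1.51), 5 of 5 T and NK cell (2.68) and 4 of 5 neutrophil markers (2.25). They were above 0 in 1 of 8 monocyte markers (-0.60). The tubule sum was 6515 CPM in Sham library 3 against 220 and 171 CPM in libraries 1 and 2. The part of these cells was not tested.

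The RAS responses were then compared between populations in 1 model with an interaction term, since a change called in KRM and not in another population does not show a difference. Of the members, 0 of 36 were called for a difference in response between KRM and CD11cloMϕ, against 0.245% of 13877 genes. A missing call does not show that the responses were equal. At an unadjusted p under 0.05 were Hspa1b, -1.82 ± 0.59 (SE, edgeR adjusted p = 0.107), Hspa1a, -1.62 ± 0.57 (SE, edgeR adjusted p = 0.129), and Atf6, -1.06 ± 0.33 (SE, edgeR adjusted p = 0.103), and no other member. DESeq2 called 3, and without KRM RAS library 1 edgeR called 3 where 16.1% of genes were called, Hspa1a at -2.14, Hspa1b at -2.42 and Atf6 at -1.33. Between KRM and CD11chiMϕ 0 of 35 members and 0% of 14137 genes were called for a difference in response, and between CD11chiMϕ and CD11cloMϕ 0 of 36 and 0% of 13540. At an unadjusted p under 0.05 were 3 members in each, and 2999 and 900 genes. DESeq2 called 0 members in both. Without KRM RAS library 1, 0 of 35 members and 7.4% of genes were called for a difference in response between KRM and CD11chiMϕ. Without CD11chiMϕ Sham library 3 these were 0 members and 0% of genes in either comparison with CD11chiMϕ. Side by side, the log2 fold changes of Hspa1a and Hspa1b were -1.40 and -1.53 in KRM and -1.36 and -1.48 in CD11chiMϕ, and the difference for Hspa1a was -0.10 ± 0.67 (SE, edgeR adjusted p = 0.956). These comparisons share libraries with those above.

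The second question was how the populations differed from each other. In Sham kidneys the summed heat shock members stood at 21605 to 31425 CPM in KRM, 15049 to 20394 CPM in CD11chiMϕ and 6498 to 11669 CPM in CD11cloMϕ, with no overlap, whereas the ER sums, at 5154 to 8472 CPM, overlapped in all 3 populations. Without Hspa1a and Hspa1b the other 11 members summed to 5581 to 8887 CPM in KRM, 5222 to 8509 CPM in CD11chiMϕ and 3972 to 6548 CPM in CD11cloMϕ, and these ranges overlap. Between KRM and CD11cloMϕ, 12 of 34 members tested were called, 7 higher and 5 lower in KRM, against 41.8% of the 12399 genes tested (19.5% higher and 22.3% lower). Of the 13 heat shock members 5 were higher and 1 lower, of the 17 ER members 2 higher and 2 lower, and of the 4 ISR members tested 2 lower. The median log2 fold change was 0.29 over the heat shock members, -0.02 over the ER members, -0.64 over the ISR members tested and -0.04 over all genes.

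Hspa1b and Hspa1a had the largest differences. In the CD11cloMϕ Sham libraries Hspa1b stood at 1351, 2589 and 2813 CPM and Hspa1a at 1175, 2309 and 2308 CPM, all far below the KRM values given above, log2 fold change 2.30 ± 0.27 (SE, edgeR adjusted p = 0.000301) and 2.09 ± 0.26 (SE, edgeR adjusted p = 0.000475). Dnajb1, the inducible HSP40 that works with HSP70, stood at 128, 193 and 227 CPM in CD11cloMϕ against 538, 583, 413 and 746 CPM in KRM, log2 fold change 1.62 ± 0.24 (SE, edgeR adjusted p = 0.0011). The small heat shock protein Hspb1 stood at 64.5, 63.7, 35.0 and 90.5 CPM in KRM and 6.73, 15.4 and 30.8 CPM in CD11cloMϕ, log2 fold change 1.83 ± 0.49 (SE, edgeR adjusted p = 0.0173). Every KRM library was above every CD11cloMϕ library in these 4 genes. Dnaja1, another HSP40, went the other way, at 287, 336, 265 and 483 CPM in KRM and 501, 546 and 698 CPM in CD11cloMϕ, log2 fold change -0.79 ± 0.21 (SE, edgeR adjusted p = 0.0175) and again no overlap.

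In the ER branch, Herpud1 stood at 151, 149 and 262 CPM in CD11cloMϕ and was higher in KRM, log2 fold change 0.97 ± 0.20 (SE, edgeR adjusted p = 0.00558), and Atf6 stood at 158, 115 and 133 CPM and was higher in KRM too, log2 fold change 0.86 ± 0.19 (SE, edgeR adjusted p = 0.00718). Neither gene's groups overlapped. Xbp1, the transcription factor spliced by IRE1, was lower, at 320.2, 279, 257 and 280.2 CPM in KRM and 493, 428 and 299 CPM in CD11cloMϕ, log2 fold change -0.54 ± 0.19 (SE, edgeR adjusted p = 0.045) although the groups overlap. Atf4, the central factor of the ISR, was lower in KRM, at 173, 162, 119 and 180.0 CPM against 196, 242 and 308 CPM, log2 fold change -0.67 ± 0.18 (SE, edgeR adjusted p = 0.0171). Sesn2 was lower at 21.3, 24.4, 26.3 and 18.2 CPM against 34.6, 31.4 and 35.7 CPM, log2 fold change -0.60 ± 0.17 (SE, edgeR adjusted p = 0.022). The groups of both ISR genes did not overlap. The remaining calls were Hspa8, higher, and Dnajc3, an ER HSP40, lower, with absolute log2 fold changes of 0.53 and 0.39. In all, 6 members did not overlap and were higher in KRM, against 24.9% of genes, and 3 were lower, against 23.8%. With the replicate number as a block, which pairs the Sham libraries, Hspa8 (adjusted p = 0.127), Xbp1 (0.0568) and Sesn2 (0.083) were no longer called in edgeR's test, and Hyou1 was. With KRM Sham libraries 2 and 4 averaged, 10 members and 35.1% of genes were called.

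**Figure D3:**
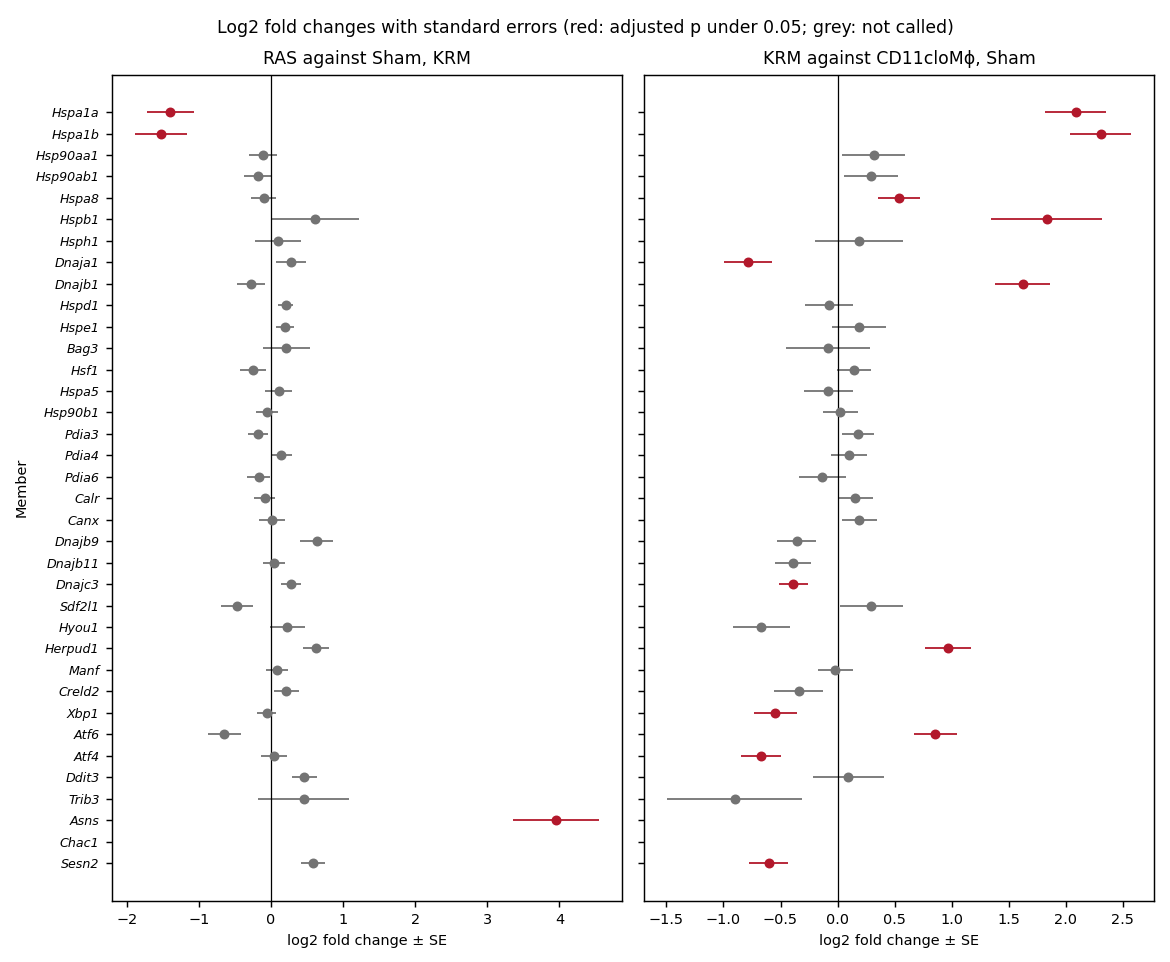
Log2 fold changes with their standard errors from edgeR for RAS against Sham in KRM (left) and for KRM against CD11cloMϕ in Sham kidneys (right), 1 row per member, red where the adjusted p was under 0.05 and grey otherwise, with Chac1 not tested in either comparison and Asns not tested in the right one. Hspa1a and Hspa1b lie at -1.40 and -1.53 on the left and at 2.09 and 2.30 on the right. Both panels use the KRM Sham libraries.

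Markers of other cells separated these populations as well. Of the monocyte markers 8 of 8 tested were called lower in KRM than in CD11cloMϕ, and of the immediate-early genes 8 of 16 were lower and 1 higher, and their summed CPM was 25248, 39475 and 28201 in CD11cloMϕ Sham against 19740 to 31730 in KRM Sham. The groups of that sum overlap. Neutrophil markers were also lower in KRM, 4 of 4 tested, with a sum of 3.24 to 7.10 CPM against 697 to 1631 CPM in CD11cloMϕ. Markers of B and plasma cells were higher, 6 of 8 tested, at 1302 to 1651 CPM against 239 to 331 CPM, and of 9 dendritic cell markers tested 4 were higher and 1 lower, at 212 to 256 CPM against 107 to 263 CPM. The part of these cells in the member calls was not tested.

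Between KRM and CD11chiMϕ in Sham kidneys, 0 of 33 members tested were called, against 5.12% of the 12404 genes tested (1% higher and 4.12% lower in KRM), with 5 members and 3031 genes at an unadjusted p under 0.05 and 2 members called by DESeq2. Hspa1a stood at 5206, 3992 and 2889 CPM in CD11chiMϕ and Hspa1b at 7062, 5835 and 3688 CPM, all below the KRM libraries, log2 fold change 1.00 ± 0.30 (SE, edgeR adjusted p = 0.107) for Hspa1a and 0.98 ± 0.32 (SE, edgeR adjusted p = 0.122) for Hspa1b. They were the only 2 of the 33 without overlap in that direction, against 13.5% of genes, and Sesn2 was the 1 member without overlap that was lower in KRM, against 10.9%. Without CD11chiMϕ Sham library 3, the one rich in tubule RNA, both were called at 0.84 and 0.79, as was Herpud1 at 0.52, where 13.6% of genes were called. In the comparison with all libraries, 6 of 10 dendritic cell, 4 of 8 monocyte and 2 of 3 neutrophil markers tested were called lower in KRM, and the part of these cells was not tested. Between CD11chiMϕ and CD11cloMϕ in Sham kidneys, 0 of 34 were called, against 1.52% of the 12105 genes tested (0.917% higher and 0.603% lower in CD11chiMϕ), with 3 members and 2143 genes at an unadjusted p under 0.05 and 2 members called by DESeq2. The 3 were Dnajb1, 1.28 ± 0.34 (SE, edgeR adjusted p = 0.128), Hspa1b, 1.35 ± 0.47 (SE, edgeR adjusted p = 0.211), and Hspa1a, 1.12 ± 0.44 (SE, edgeR adjusted p = 0.258), each with every CD11chiMϕ library above every CD11cloMϕ library, a separation seen in 12.5% of genes. Without CD11chiMϕ Sham library 3, 0 of 34 members and 5.7% of genes were called. None of the 34 was lower in CD11chiMϕ without overlap, against 14.3% of genes. Markers of other cells differed here too. Log2 fold changes were above 0 in 10 of 10 dendritic cell markers (median 3.62, 1 called) and 8 of 8 B and plasma cell markers (2.75, 0 called). They were above 0 in 0 of 8 monocyte markers (-3.60, 1 called) and 0 of 4 neutrophil markers (-2.95, 0 called). The part of these cells was not tested.

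In RAS kidneys the calls included ER genes that stood higher in CD11chiMϕ. Against CD11chiMϕ, 3 of 35 members were called in KRM, against 9.23% of the 13226 genes tested, with 1 higher where 4.17% of genes were and 2 lower where 5.07% were. The lower ones were Creld2 and Sdf2l1, both ER stress-inducible genes. Creld2 stood at 48.0, 49.1 and 46.3 CPM in KRM and 67.0, 171, 162 and 148 CPM in CD11chiMϕ, log2 fold change -1.47 ± 0.34 (SE, edgeR adjusted p = 0.0413). Sdf2l1 stood at 116, 89.7 and 91.9 CPM in KRM and 149.6, 309, 311 and 308 CPM in CD11chiMϕ, log2 fold change -1.39 ± 0.31 (SE, edgeR adjusted p = 0.0389). No KRM library reached a CD11chiMϕ library in either gene, and CD11chiMϕ RAS library 1 was the nearest in both. Dnajb1 was the higher one, at 483, 408 and 418 CPM against 323, 229.5, 215 and 238 CPM, log2 fold change 0.85 ± 0.22 (SE, edgeR adjusted p = 0.0499). Of the 35 members, 9 were lower in KRM without overlap, against 15.8% of genes, and 8 of those 9 were ER members, the other being Dnaja1. The margin was narrow in Pdia3, at most 807.6 CPM in KRM and at least 809.0 CPM in CD11chiMϕ. The TMM factors behind these values were 1.12 to 1.16 in KRM RAS and 0.836 to 1.13 in CD11chiMϕ RAS. Dnajb1 was the only member higher in KRM without overlap, against 11% of genes. The median log2 fold change of the 17 ER members was -0.44 and that of all genes tested 0.03. Without KRM RAS library 1 there were 4 calls (Sdf2l1, Creld2, Hspb1 and Dnajb9) where 19.6% of genes were called, and without CD11chiMϕ RAS library 1 there were 6 (Dnajb1, Hsp90b1, Sdf2l1, Manf, Creld2 and Sesn2) where 17.6% were. Without any 1 of the other libraries 0 members and 0.103 to 1.56% of genes were called, and 0 members with the close pair of either population averaged, where 0.155 and 0.367% of genes were. Tubule markers were higher in KRM than in CD11chiMϕ, 7 of 20, with a sum of 1689 to 8196 CPM against 427 to 1377 CPM, and dendritic cell markers were lower, 5 of 10. The part of these cells was not tested.

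Between KRM and CD11cloMϕ in RAS kidneys, 1 of 36 members was called, against 9.17% of the 13179 genes tested (3.28% higher and 5.89% lower in KRM). Dnaja1 stood at 422, 353 and 382 CPM in KRM and 687, 1049, 666 and 729 CPM in CD11cloMϕ, log2 fold change -0.98 ± 0.23 (SE, edgeR adjusted p = 0.0451) and no overlap. The call was lost under 11 of 18 alternatives, among them the replicate block and limma, which each called Hspb1 in its place. The difference of the HSP70 genes seen in Sham kidneys was not called here. Hspa1a stood at 4690.3, 1846 and 2288 CPM in KRM and 2351, 1125, 3539 and 1678 CPM in CD11cloMϕ, where the groups overlap. Without overlap, 7 members were lower in KRM, against 17.5% of genes, and 1 was higher, Dnajb1, against 13%. Without KRM RAS library 1 there were 3 calls (Hspb1, Dnaja1 and Xbp1) where 23% of genes were called, and without CD11cloMϕ RAS library 3 there were 4 (Dnaja1, Dnajb1, Herpud1 and Xbp1) where 16.2% were. Without any 1 of the other libraries 0 members and 0 to 4.14% of genes were called, and 0 members and 0% of genes with KRM RAS libraries 2 and 3 averaged. Markers of other cells moved here too. All 8 monocyte and 4 of 4 neutrophil markers tested were called lower in KRM, with sums of 596 to 1043 against 3042 to 7325 CPM and of 0.642 to 11.5 against 1573 to 2417 CPM. Tubule markers were higher in KRM, 5 of 20, at 1689 to 8196 CPM against 57.1 to 930 CPM, and T and NK cell markers 2 of 10. The part of these cells was not tested.

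Between CD11chiMϕ and CD11cloMϕ in RAS kidneys, 2 of 35 members were called, against 8.27% of the 12305 genes tested, with 1 higher where 5.15% of genes were and 1 lower where 3.12% were. Sdf2l1 stood at 100.5, 119, 140.1 and 114 CPM in CD11cloMϕ, all below CD11chiMϕ, log2 fold change 1.18 ± 0.26 (SE, edgeR adjusted p = 0.0272). Chac1 had counts of 5, 0, 3 and 2 in CD11chiMϕ and 11, 32, 18 and 36 in CD11cloMϕ, all lower in CD11chiMϕ, log2 fold change -3.28 ± 0.82 (SE, edgeR adjusted p = 0.0399). With the replicate block Creld2 was called in place of Chac1. Groups did not overlap in 1 member that was higher, against 9.35% of genes, and in 4 that were lower, against 7.28%. The number called was 4 without CD11chiMϕ RAS library 1 (Sdf2l1, Creld2, Chac1 and Sesn2), where 17.3% of genes were called, and 0 to 1 without any other single library, where 2.02 to 8.13% were. With CD11chiMϕ RAS libraries 3 and 4 averaged it was 0, and 2.23% of genes were called. CD11chiMϕ RAS libraries also carried markers of dendritic cells, 9 of 10 called higher than in CD11cloMϕ and 5 of 10 higher than in KRM, with summed CPM of 1263, 2295, 5400.3 and 5801, and 8 of 9 T and NK cell markers were called higher than in CD11cloMϕ. Sdf2l1 was 149.6, 309, 311 and 308 CPM in the same libraries. Called lower than in CD11cloMϕ were 4 of 8 monocyte and 3 of 5 neutrophil markers tested, and 1 of 9 B and plasma cell markers was called higher. The part of these cells was not tested.

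**Figure D4:**
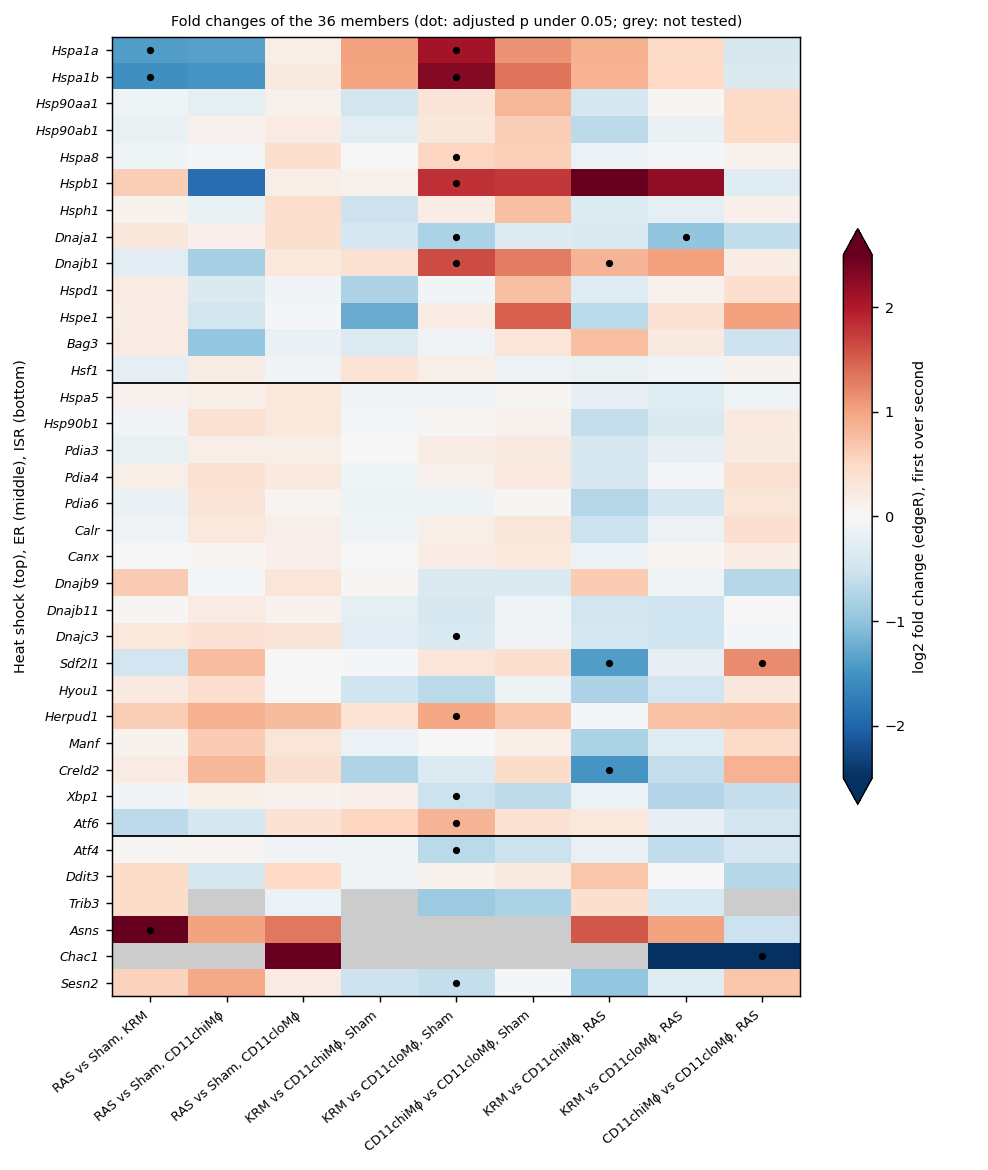
Log2 fold changes of the 36 members (vertical axis, by branch) in the 9 comparisons of groups (horizontal axis), red where the first named group was higher, blue where it was lower, grey where a member was not tested, and with a dot where the adjusted p was under 0.05. The colour scale is cut at -2.5 and 2.5. KRM against CD11cloMϕ in Sham kidneys carries 12 dots and the other comparisons 0 to 3.

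The central ER chaperones carried no call when all libraries of a comparison entered edgeR's test. Hspa5 stood at 1514, 1725, 1364 and 2247 CPM in KRM Sham and 1557, 1683 and 1876 CPM in KRM RAS, at 2284, 1493 and 1439.6 and 1563, 1964, 2323 and 2322 CPM in CD11chiMϕ, and at 1311, 1878 and 2173 and 1555, 2204, 2679 and 2306 CPM in CD11cloMϕ. Hsp90b1 (GRP94, the ER HSP90) ranged from 603 to 1270 CPM over all libraries, and both extremes were in CD11chiMϕ. Neither gene was called in the 9 comparisons of groups with all libraries, but Hsp90b1 was lower in KRM than in CD11chiMϕ in RAS kidneys without CD11chiMϕ RAS library 1, log2 fold change -0.72 ± 0.20 (SE, edgeR adjusted p = 0.0482). Also without a call with all libraries were the disulfide isomerases Pdia3, Pdia4 and Pdia6, the lectin chaperones Calr and Canx, and Manf, Dnajb9, Dnajb11 and Hyou1. Of the 20 members without a call there, 14 were called under at least 1 alternative setting, among them Manf, Dnajb9 and Hyou1, and 6 under none that was run (Hspa5, Pdia4, Pdia6, Hsph1, Hspd1 and Trib3).

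Of the other heat shock members, Hsph1 (HSP110) stood at 61.8, 87.8, 61.8 and 154 CPM in KRM Sham and 76.8, 89.3 and 103 CPM in KRM RAS, and Bag3, a co-chaperone of HSP70, at 46.7, 55.9, 30.4 and 86.9 and 44.7, 64.6 and 66.6 CPM. In both, KRM Sham library 4 was the highest and the groups overlap. The HSP90 genes Hsp90aa1 and Hsp90ab1, Hsph1, Bag3, Hsf1, Hspd1 and Hspe1 were called in none of the 9 comparisons of groups with all libraries, where the heat shock calls were Hspa1a, Hspa1b, Hspa8, Hspb1, Dnaja1 and Dnajb1. Under other settings Hsf1 was called, as given above, and so were Hsp90aa1, Hsp90ab1, Bag3 and Hspe1 under 2 each. The Hsf1 values of the populations overlapped too, at 51.5, 42.5 and 36.2 CPM in CD11chiMϕ Sham and 41.7, 58.1 and 52.7 CPM in CD11cloMϕ Sham.

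The members that were not tested in a comparison, for low counts, were Asns, Chac1 or Trib3 in each case, and the other 33 were tested in all 9. In the ISR branch, Ddit3 (CHOP) stood at 30.8, 24.4, 19.2 and 25.2 CPM in KRM Sham and 29.4, 35.1 and 30.7 CPM in KRM RAS. It was not called in any comparison with all libraries, nor was Trib3, an ATF4 target with no more than 22 counts in any library. Atf4 RNA stood at 125, 164 and 164 CPM in KRM RAS, within its KRM Sham range, while Asns, a target of ATF4, rose there. Asns in the other populations stood at 1.22, 4.92, 3.55 and 0.486 CPM in CD11chiMϕ RAS and 0.412, 3.94, 4.07 and 6.33 CPM in CD11cloMϕ RAS, overlapping with the Sham libraries, where it was at most 2.26 and 3.52 CPM.

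Genes of the same pathways outside the module were counted from lists of 41 heat shock, 42 ER and 41 ISR genes found in the table. In KRM, RAS against Sham gave 3 higher of 40 heat shock genes tested, 3 higher of 42 ER genes and 6 higher of 35 ISR genes, with none lower, where 7.77% of all genes tested were higher and 1.94% lower. The heat shock and ER shares are near that background. The largest were Cryab, a small heat shock protein, at 5.23 ± 1.11 (SE), Serpinh1, a collagen chaperone, at 4.84 ± 0.94, and the ISR genes Gdf15 at 3.78 ± 0.74 and Nupr1 at 3.34 ± 0.49, all log2 fold changes from edgeR. Without KRM RAS library 1 these were 5.76, 5.33, 4.27 and 3.72, and the lists then gave 15 higher and 3 lower of 41, 9 and 12 of 42, and 14 and 4 of 37 where 50.2% of all genes were called. HSP70 genes fell in the same comparison, and 7 of 18 tubule markers rose. The response of Nupr1 was also called different between KRM and CD11cloMϕ, by 3.67 ± 0.68 (SE, edgeR adjusted p = 0.0488), and by 4.07 without KRM RAS library 1. This was the only call of these lists there and was lost under 16 of 28 alternatives. Among those were the fits without KRM Sham library 1, 2 or 3, each with 0% of genes called.

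In Sham kidneys, KRM against CD11cloMϕ gave 6 higher and 12 lower of 40 heat shock genes, 3 higher and 13 lower of 42 ER genes, and 1 higher and 11 lower of 34 ISR genes, where 19.5% of all genes tested were higher and 22.3% lower. The largest were the cystine transporter Slc7a11 at -5.38 ± 0.27, Nupr1 at -5.15 ± 0.21, the transcription factor Cebpb at -3.56 ± 0.20 and Derl3, of ER-associated degradation, at 2.54 ± 0.69. Derl3 is also 1 of the B and plasma cell markers, which were higher in KRM. Slc7a11 was also lower in KRM than in CD11chiMϕ, at -2.97 ± 0.38, and in CD11chiMϕ than in CD11cloMϕ, at -2.37 ± 0.33. KRM against CD11chiMϕ in Sham kidneys gave 0 of 40 heat shock, 2 of 42 ER and 3 of 33 ISR genes, against 5.12% of all genes tested, the others named by the rule being Nupr1 at -3.55 ± 0.45, the disulfide isomerase Pdia5 at -2.37 ± 0.45 and the translocon subunit Sec61b at -1.18 ± 0.17. Without CD11chiMϕ Sham library 3, Slc7a11, Nupr1, Pdia5 and Sec61b stood at -3.08, -3.91, -1.72 and -1.20 and were still called. The lists then gave 3 lower of 40 heat shock genes, 4 lower of 42 ER genes, and 2 higher and 6 lower of 34 ISR genes, where 13.6% of all genes were called. Over all alternatives Pdia5 lost its call under 7 of 18, Sec61b under 6 of 18 and Slc7a11 under 3 of 17, and Nupr1 kept it. In CD11chiMϕ against CD11cloMϕ, Slc7a11 stood at -2.30 without CD11chiMϕ Sham library 3. Its call there was lost under 7 of 16 alternatives. Among those was each fit without any other single library, where 0% of genes were called. In RAS kidneys Slc7a11 was lower in KRM too, at -4.62 ± 0.84 against CD11cloMϕ and -3.38 ± 0.68 against CD11chiMϕ. There KRM also differed from CD11chiMϕ in Cth (2.91 ± 0.71), Mthfd2 (-1.95 ± 0.29) and Sec61b (-1.47 ± 0.37), and from CD11cloMϕ in Cebpb (-2.51 ± 0.34), Phgdh (2.07 ± 0.47) and Ppp1r15b (-0.90 ± 0.20). Without KRM RAS library 1 these 8 differences kept their direction, and all but Sec61b (adjusted p = 0.0565 in edgeR's test) their call. Without KRM RAS library 2 or 3, or with both averaged, 0% of genes were called against CD11cloMϕ. Over all alternatives, calls against CD11cloMϕ were lost under 6 (Slc7a11), 5 (Cebpb), 8 (Phgdh) and 10 (Ppp1r15b) of 18. Those against CD11chiMϕ were lost under 9 (Slc7a11), 7 (Mthfd2) and 12 (Sec61b) of 19 and 11 of 18 (Cth). CD11chiMϕ differed from CD11cloMϕ in Cebpb (-2.09 ± 0.35), Mthfd2 (1.34 ± 0.26) and Shmt2 (1.08 ± 0.28). Cth, Mthfd2, Phgdh and Shmt2 encode enzymes of transsulfuration, folate and serine metabolism, and Ppp1r15b a phosphatase subunit that reverses the ISR.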

How the data were processed

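RNA-seq was carried out on total RNA from 21 libraries made with the v4 Ultra Low-Input and Nextera XT kits. According to the study's methods, the authors aligned paired-end reads to mm10 with the OmicSoft OSA aligner and Ensembl release 83 gene models. They deposited a table of estimated counts per gene, not normalized, of which 9.7 to 14.23% of the values in a library were not whole, and a table of log2(TPM + 1) values, scaled and quantile normalized, while their own processing notes name DESeq2. The count table held 37620 lines with 34236 gene names, and lines were rounded to whole counts and those of the same name summed. CPM values use library totals adjusted by TMM over all 21 libraries. In the log2 table, the column of KRM RAS library 1 correlated across genes with its own counts at r = 0.09 (0.915 to 0.966 for the other libraries) and at no more than 0.293 with the counts of any library, so levels leave it out.

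Samples were grouped by population and surgery as labelled. Each of 9 pairs of groups was fitted on its own libraries with the quasi-likelihood F test of edgeR 4.0.16 under R 4.3.3 (genes kept by filterByExpr at minimum counts of 10 per library and 15 in total, libraries scaled by TMM, Benjamini-Hochberg over all genes tested, called at an adjusted p under 0.05), and the difference in RAS response of each pair of populations by an interaction term. Alternatives used DESeq2 1.42.0 and limma 3.58.1. Log2 fold changes were those of edgeR's fit at its default prior count. The scripts were tested on simulated data. Depth of 6891137 to 18592376 counts per library limits the precision of Asns, Chac1 and Trib3, and floors cover counting error only. Labels do not say that libraries came from separate mice, so p-values measure the spread between these libraries, which may be technical. Of libraries in the same group, none differed by less than counting error, but CD11chiMϕ RAS 3 and 4, KRM RAS 2 and 3 and KRM Sham 2 and 4 were closer than the other pairs of their groups, and whether they come from separate mice is not given.

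The members and lists were chosen with earlier results of these data known. The rule for named genes took every member called, the lead genes of each branch, at most 10 members with the largest absolute log2 fold change where more than 10 were called, and at most 4 further pathway genes per comparison, those with the largest absolute log2 fold change among the called. Same-numbered Sham libraries of different populations deviated together (correlations of deviations from group means 0.196 to 0.645), so the number was taken to pair them. For RAS libraries of different populations the correlations were 0.0583 to 0.508, all above 0 and overlapping the Sham range. Whether the number pairs the RAS libraries is not settled by these values. For RAS and Sham of 1 population the lowest correlation was -0.201. Sequences were taken from RefSeq promoter windows of GRCm38.p6, where 29 of 36 members matched by symbol, and protein sequences were not used here.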

Additional observations from a re-analysis of the deposited data

Results flagged for a closer look

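In 6 of 107 sets of 4 libraries tested for single members, 1 library stood apart from the other 3 by Dixon's criterion on the gap relative to the group's whole range, or 5.61%, where chance gives about 1 in 20. CD11chiMϕ RAS library 2 was the highest of its group for Hsph1, at 180.0 CPM with the next at 105 CPM, and for Hspe1, the mitochondrial co-chaperonin, at 226 CPM with the next at 85.5 CPM. CD11chiMϕ RAS library 1 was the lowest for Sdf2l1, at 149.6 CPM where the other 3 were at 308 to 311 CPM, and the number of members called against KRM was 6 without it and 3 with it. CD11cloMϕ RAS library 2 was the highest for Dnaja1, at 1049 CPM with the next at 729 CPM, and library 3 the highest for Herpud1, at 670.0 CPM with the next at 259 CPM. KRM Sham library 4 was the highest for Hyou1, an ER chaperone, at 40.2 CPM with the next at 23.3 CPM. No member moved one way in every RAS library of 1 population and the opposite way in every RAS library of another.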

How the results depend on the processing

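Of 245 counts of called members under another setting, 183 were within 1.5 times the reported count. For named genes, 770 of 1081 alternative values kept direction and side of the threshold, 287 lost and 24 gained the call, and none reversed. Settings that average libraries, sum Hspa1a and Hspa1b, drop the KRM RAS 1 log2 column or nest the block within surgery were chosen after seeing the data. RAS against Sham in CD11chiMϕ and in CD11cloMϕ, and the differences in response of CD11chiMϕ from KRM and from CD11cloMϕ, gave 0 members under every setting run.

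For RAS against Sham in KRM the 3 members became 6 with DESeq2, 1 with 1 fit over all 6 groups, 0 with the replicate block, 0 with KRM RAS libraries 2 and 3 averaged as 1, 0 with KRM Sham libraries 2 and 4 averaged as 1, and 11 with limma on the log2 table without the KRM RAS 1 column. With the replicate block the edgeR adjusted p was 0.119 for Hspa1a, 0.120 for Hspa1b and 0.0926 for Asns, but these libraries share only a number. For KRM against CD11chiMϕ in RAS kidneys the 3 became 5 with DESeq2, 5 with 1 fit, 0 with the replicate block, 0 with limma on the log2 table, 0 with CD11chiMϕ RAS libraries 3 and 4 averaged, 0 with KRM RAS libraries 2 and 3 averaged, and 5 with limma without the KRM RAS 1 column. For KRM against CD11cloMϕ in RAS kidneys the 1 became 5 with DESeq2, 2 with total library size, 0 without a filter, 3 with at least 10 counts in every library, 4 with 1 fit, 0 with the KRM libraries averaged and 3 with limma without that column. For CD11chiMϕ against CD11cloMϕ in RAS kidneys the 2 became 5 with DESeq2, 1 without a filter, 1 with at least 10 counts in every library and 0 with the CD11chiMϕ libraries averaged. In Sham kidneys, KRM against CD11cloMϕ gave 4 with 1 fit in place of 12, KRM against CD11chiMϕ 2 with DESeq2 and 3 without all Sham libraries numbered 3 in place of 0, and CD11chiMϕ against CD11cloMϕ 2 with DESeq2, 1 with 1 fit and 4 without the libraries numbered 3 in place of 0. The difference in response of KRM and CD11cloMϕ gave 3 with DESeq2, 3 with limma and 3 with limma without the KRM RAS 1 column in place of 0. Among the pathway genes outside the module in RAS against Sham of KRM, Cryab lost its call under 11 of 20 alternatives and Serpinh1, Gdf15 and Nupr1 under 8 of 20. The cause of these changes was not tested.

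Leaving out each library in turn gave 0 to 9 members for RAS against Sham in KRM, 0 to 3 for KRM against CD11chiMϕ and 8 to 14 for KRM against CD11cloMϕ in Sham kidneys, 0 to 6, 0 to 4 and 0 to 4 for KRM against CD11chiMϕ, KRM against CD11cloMϕ and CD11chiMϕ against CD11cloMϕ in RAS kidneys, and 0 to 3 for the difference in response of KRM and CD11cloMϕ. With the replicate block, which pairs the Sham libraries, KRM against CD11cloMϕ gave 10 members in place of 12, and in RAS kidneys the block called Hspb1 in place of Dnaja1 for KRM against CD11cloMϕ, and Sdf2l1 and Creld2 in place of Sdf2l1 and Chac1 for CD11chiMϕ against CD11cloMϕ. Depth limited Asns, Chac1 and Trib3, with at most 124 counts in a KRM library, and a count of 0 allows up to 0.150 to 0.476 CPM.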

Other observations

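The ratio of Hspa1b to Hspa1a CPM stayed between 1.08 and 1.46 in the 21 libraries, at 1.31 to 1.41 in KRM Sham, where both were highest, and at 1.08 to 1.35 in CD11chiMϕ RAS. Hspb1 differed widely within RAS groups, at 17.2 CPM in KRM RAS library 1 against 143 and 106 CPM in libraries 2 and 3. In CD11chiMϕ RAS libraries 1 to 4, Herpud1 stood at 309, 423, 781 and 742 CPM and Sesn2 at 31.8, 48.2, 93.3 and 83.8 CPM, and the summed dendritic cell markers of the same libraries at 1263, 2295, 5400 and 5801 CPM. The lowest values of all 3 were in library 1. Macrophage markers did not share a direction over these libraries, of which 3 and 4 are the close pair. Adgre1 stood at 762, 197, 128 and 119 CPM and Lyz2 at 14152, 22826, 14101 and 12861 CPM. Cd14 stood at 632, 964, 1605 and 1318 CPM and Cd68 at 655, 729, 758 and 735 CPM, both lowest in library 1. The part of these cells was not tested.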
